A study of Mus musculus with 50 samples.

Results

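Trh, Pomc and Crhr2, genes of the hypothalamic stress and thyroid axes, were followed in the paraventricular nucleus (PVN) of the mouse hypothalamus. Clones were chosen by the name printed in the scanner files, and 1 clone was found for each gene, so that 3 of the 22824 non-control clones on the array are described here. The clone of Trh is named thyrotropin releasing hormone and that of Pomc pro-opiomelanocortin-alpha, while the clone of Crhr2 carries only its symbol and not the full gene name. The PVN and adjacent tissue had been micropunched from the brains of single-housed male C57BL/6J and DBA/2J mice aged 3 to 5 months, either left non-stressed or killed at 4 h or 8 h following a forced swim of 5 min. Each of the 6 conditions was represented by pooled RNA from 6 animals (DBA/2J 4 h, 8 h and non-stressed, C57BL/6J 4 h, 8 h and non-stressed), that is by 1 pool, amplified before labelling. There were 5 comparisons, each with 10 two-colour arrays that carried the same 2 pools, 5 arrays in each dye orientation. Stressed mice were set against non-stressed mice of their strain at 4 h and at 8 h, and non-stressed DBA/2J mice against non-stressed C57BL/6J mice. The 10 arrays are repeat hybridisations of the same 2 pools, so all errors and p-values below cover labelling and hybridisation and compare 2 pools, not 2 conditions. Animal-to-animal spread was not measured, and fewer cells of a type cannot be told apart from less RNA per cell.

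Trh encodes the precursor of thyrotropin releasing hormone, the tripeptide with which parvocellular PVN neurons drive the pituitary to release thyrotropin and so set thyroid hormone output. Its transcription is held down by thyroid hormone and is driven by cAMP signalling and by the melanocortin peptide alpha-MSH. Pomc encodes the precursor of ACTH, alpha-MSH and beta-endorphin and is made by corticotrophs of the pituitary and by neurons of the arcuate nucleus, whose axons reach the PVN. Crhr2 encodes the second receptor for peptides of the corticotropin releasing hormone family and binds urocortins with high affinity.

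The sequence upstream of each gene is shown because Trh and Pomc are textbook cases of regulation by nuclear receptors and cAMP. The 250 bases before the annotated start are from RefSeq on GRCm38.p6, in which all 3 symbols were found, and run at chr6:92244651-92244900 on the minus strand for Trh, at chr12:3954695-3954944 on the plus strand for Pomc and at chr6:55133017-55133266 on the minus strand for Crhr2. Capitals mark the 3 motifs searched: AGGTCA (half-site of nuclear receptors, either strand), TGACG (half-site of the cAMP response element, either strand) and TATAA (core of the TATA box, the printed strand only).
Trh: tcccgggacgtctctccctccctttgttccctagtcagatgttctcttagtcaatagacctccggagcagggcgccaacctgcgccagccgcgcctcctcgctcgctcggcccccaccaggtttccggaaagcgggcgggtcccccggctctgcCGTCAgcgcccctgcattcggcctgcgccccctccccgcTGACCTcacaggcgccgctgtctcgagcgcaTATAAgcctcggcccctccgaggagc
Pomc: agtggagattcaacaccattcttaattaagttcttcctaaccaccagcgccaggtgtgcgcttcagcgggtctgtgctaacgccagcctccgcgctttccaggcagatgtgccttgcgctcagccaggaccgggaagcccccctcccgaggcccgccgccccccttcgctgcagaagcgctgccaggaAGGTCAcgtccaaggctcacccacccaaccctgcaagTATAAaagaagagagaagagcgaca
Crhr2: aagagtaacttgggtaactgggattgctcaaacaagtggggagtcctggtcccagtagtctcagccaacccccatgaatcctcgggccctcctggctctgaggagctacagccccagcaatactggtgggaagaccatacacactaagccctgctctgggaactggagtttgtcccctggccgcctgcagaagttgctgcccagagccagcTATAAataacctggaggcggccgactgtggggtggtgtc
In the Trh sequence the nuclear receptor half-site stood 57 to 52 bases before the start and the cAMP half-site 96 to 92 bases before it, both on the other strand (printed as TGACCT and CGTCA), with TATAA at 26 to 22. The Pomc sequence held AGGTCA at 62 to 57 bases and TATAA at 25 to 21, and the Crhr2 sequence held only TATAA, at 39 to 35. No match overlapped another. Of 32851 annotated promoters of the same length, 14.02% held the nuclear receptor half-site, 17.77% the cAMP half-site and 5255 promoters TATAA, so that a single match is common. These letters are a description of the window, and binding was not measured.

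The 3 clones differed in how far they stood above the empty spots of the array. The limit used was the 95th percentile of the empty spots of the same channel and array, which lay between 171 and 4367 scanner units with a median of 636. The median clone had 135 to 491 units per channel, and 6.7% to 70.2% of all clones passed the limit in either channel of an array. Each clone was read in 100 channels. Trh passed the limit in 47 of them, Pomc in 13 and Crhr2 in 1. Pomc passed it in no channel of a DBA/2J pool and only on arrays of the C57BL/6J 4 h comparison, while the 1 channel in which Crhr2 passed it was of the C57BL/6J 4 h pool. The limit is a strict one, since some empty spots were bright, and their median was 39.7 to 231 units. Trh lay above the median of the empty spots in every channel. Among clones of PVN peptides, the Avp clone passed the 95th percentile in 29 channels, the Oxt clone in 4 and the Crh clone in none, and 1 of the 2 somatostatin clones passed it in 60. Clones of a list of thalamus markers passed it in 0 to 100 channels, with a Prkcd clone highest. Those of an arcuate list passed it in 0 to 73, with a Cartpt clone highest. The share of each region in the labelled tissue was not tested.

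**Figure D1:**
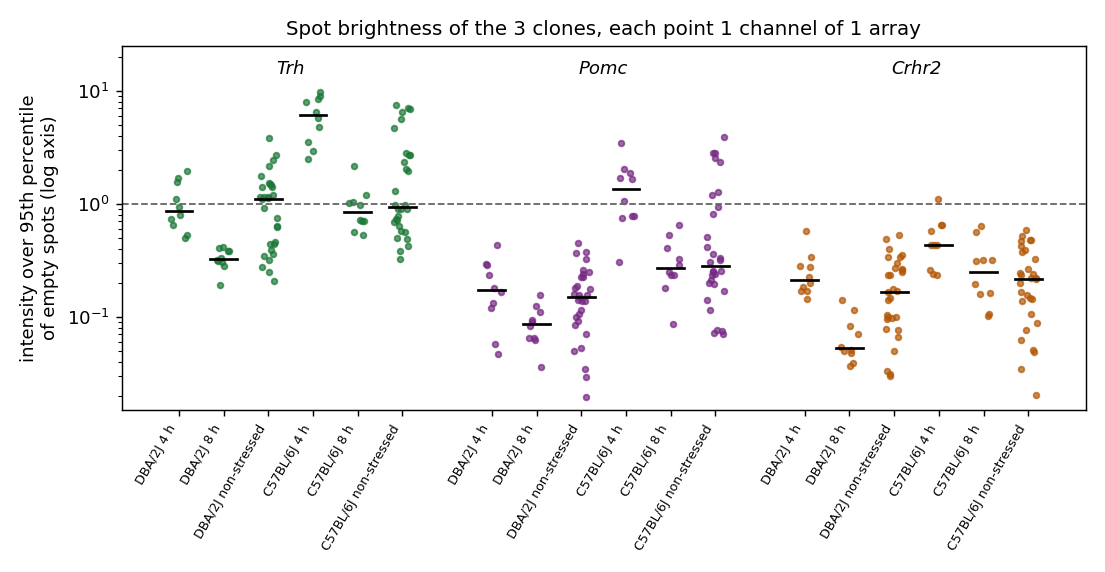
Spot intensity of the Trh, Pomc and Crhr2 clones divided by the 95th percentile of the empty spots of the same channel (log axis), 1 point per channel, by RNA pool, with the median as a bar and the limit as a dashed line. Trh lies around the limit, and Pomc and Crhr2 lie mostly below it.

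Trh was the member that changed. By the labelled dyes its log2 ratio was below 0 on 10 of 10 arrays in DBA/2J mice 4 h after swimming, with an estimate 1.68-fold lower in the stressed pool, which passed the limit of the empty spots on 4 of 10 arrays, than in the non-stressed pool, which passed it on 10. The folds that the study lists for these arrays run in the opposite direction, and it lists this Trh clone as up-regulated at 4 h in DBA/2J mice. Its PCR assays of other genes, made without pooling, and its in situ signal run in the opposite direction too, and were not analysed here. The deposited files do not settle which direction holds. All signed values here follow the labelled dyes, and with the sign turned every higher value becomes lower and the reverse, so that Trh at 4 h in DBA/2J mice would be at 0.75 in place of -0.75.

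With the stressed DBA/2J pool in Cy5 (5 arrays), Trh read 327, 194, 351, 710 and 340 units in that pool, against 1265, 909, 1698, 2587 and 1277 units in the non-stressed pool. On the 5 arrays with the dyes exchanged it read 1255, 757, 1789, 767 and 826 units in the stressed pool, against 984, 633, 1288, 534 and 610 units in the non-stressed pool. Before normalization the stressed pool was therefore the dimmer one on the first 5 arrays and the brighter one on the other 5, where it carried Cy3. After normalization the log2 ratios were -0.73, -1.18, -1.10, -0.65 and -0.70 with the stressed pool in Cy5 and -0.36, -0.93, -0.55, -0.51 and -0.82 with it in Cy3, and all 10 lay on one side of 0. With each array only centred on its median, the estimate was -0.80.

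The limma estimate for Trh in DBA/2J mice at 4 h was -0.75 (SE 0.125, 95% interval -1.02 to -0.48, adjusted p = 0.0309, n = 10 arrays). It ranked as number 26 of 22824 clones by p, and 0.307% of clones had a larger absolute log2 ratio. In this comparison 0.153% of all clones passed the call, which required an absolute log2 ratio of 0.5 (1.41-fold) and a Benjamini-Hochberg adjusted p under 0.05, and Trh was the 1 member among them. The 8 spots around the Trh spot averaged 0.08 in the same comparison, with none below -0.33. Of 10 marker lists for brain regions and cell types, holding 113 clones, 0 clones were called in it by limma, and 8 of 26 astrocyte clones and 0 to 2 clones of each other list had an unadjusted p under 0.05. The 8 arrays scanned on the first day averaged -0.78 ± 0.28 (SD) and the 2 scanned on the second, both with the stressed pool in Cy3, -0.66 ± 0.22. The call is close to its threshold: leaving out any 1 of the 10 arrays ended it, with estimates of -0.79 to -0.71 and adjusted p-values of 0.0689 to 0.105.

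**Figure D2:**
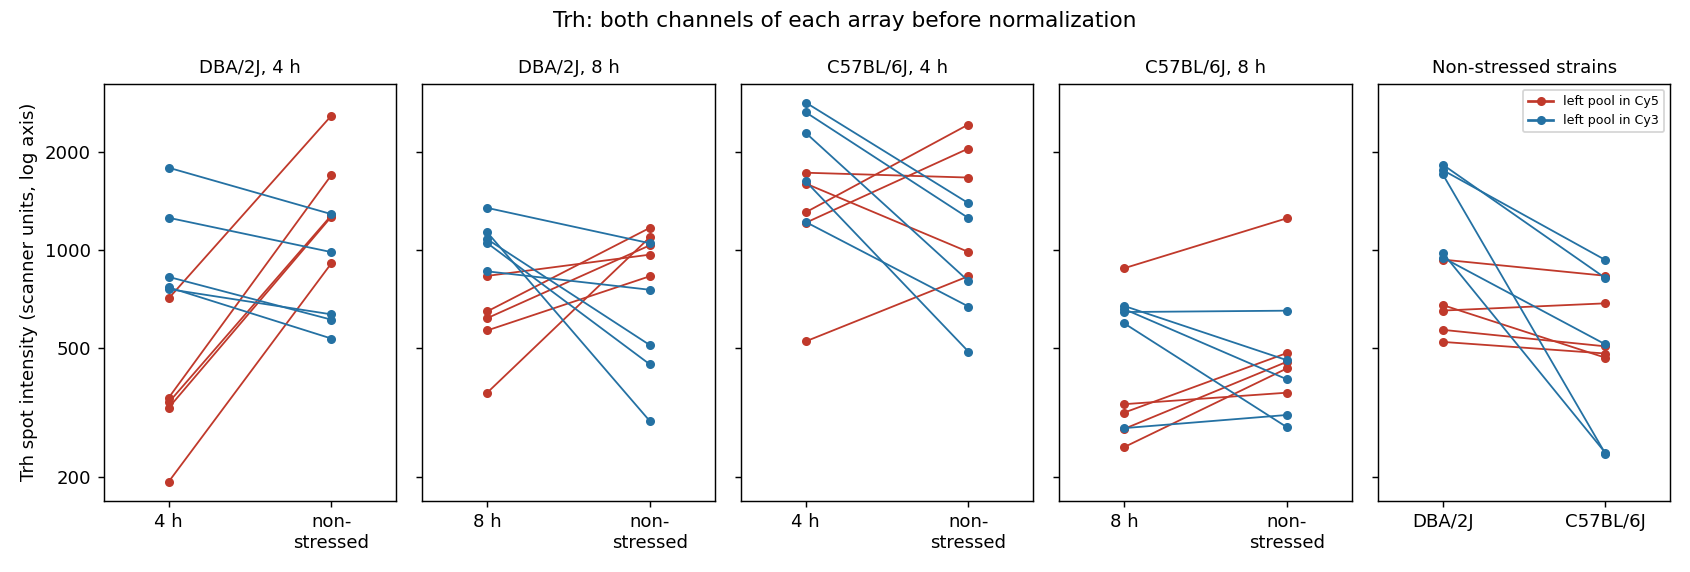
Trh spot intensity in both channels of each array before normalization (scanner units, log axis), 1 line per array, with the stressed pool on the left of the non-stressed pool, or DBA/2J on the left of C57BL/6J. In DBA/2J at 4 h the lines rise to the right where Cy5 marked the stressed pool (5 arrays) and slope down less steeply in the 5 others.

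In DBA/2J mice at 8 h Trh did not pass the call. Its ratios ran from -0.99 to 1.04 with a median of 0.02, 5 arrays lying below 0 and 5 above, and the estimate was 0.06 (SE 0.158, 95% interval -0.29 to 0.41, adjusted p = 0.914). Trh read 364 to 1346 units in the 8 h pool (median 845) and 297 to 1169 units in the non-stressed pool (median 898), and the ranges overlapped. Both pools were under the limit of the empty spots on all 10 arrays, so no fold is given. The share of all clones called here was 0.158%, and 0 of the 3 members were among them or had an unadjusted p under 0.05 in limma.

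In C57BL/6J mice at 4 h Trh had a positive log2 ratio on 8 of 10 arrays, from -0.12 to 0.71 with a median of 0.36. The estimate of 0.33 (SE 0.1002, 95% interval 0.11 to 0.55) had an unadjusted p of 0.00705 and missed the call by both its size and its adjusted p of 0.201 in limma. Trh read 523 to 2838 units in the 4 h pool (median 1612) and 487 to 2430 units in the non-stressed pool (median 1119), and both pools passed the limit of the empty spots on 10 of 10 arrays. The clones called made up 0.289% of all, with 0 of the 3 members, of which 1 (Trh) had an unadjusted p under 0.05. At 8 h in C57BL/6J mice the ratios ran from -0.45 to 0.60 and the estimate was 0.02 (SE 0.138, 95% interval -0.28 to 0.32, adjusted p = 0.977). In that comparison Trh passed the limit of the empty spots on 4 of 10 arrays in the 8 h pool and on 1 of 10 in the non-stressed pool. There 0.0832% of all clones and again 0 members were called, and 0 members had an unadjusted p under 0.05 in limma.

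Between the non-stressed strains Trh had an estimate of 0.26, DBA/2J over C57BL/6J (SE 0.173, 95% interval -0.11 to 0.63, adjusted p = 0.519). The ratios ran from -0.48 to 1.19, with 7 of 10 above 0. Trh read 521 to 1828 units in the DBA/2J pool (median 940.0) and 236 to 930.4 units in the C57BL/6J pool (median 508), and the ranges overlapped. It passed the limit of the empty spots on 6 of 10 arrays in the DBA/2J pool and on 2 of 10 in the C57BL/6J pool. The 8 spots around it averaged 0.30 in this comparison. Of all clones 3.62% were called between the strains, but 0 of the 3 members, of which 0 had an unadjusted p under 0.05 in limma. Cell type markers moved between the strains as well, with 18 of 113 marker clones called, namely 9 of 29 for oligodendrocytes and myelin (7 higher and 2 lower), 4 of 26 for astrocytes (all higher), 3 of 11 for thalamus (2 higher and 1 lower) and 2 of 5 for blood cells (both higher).

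**Figure D3:**
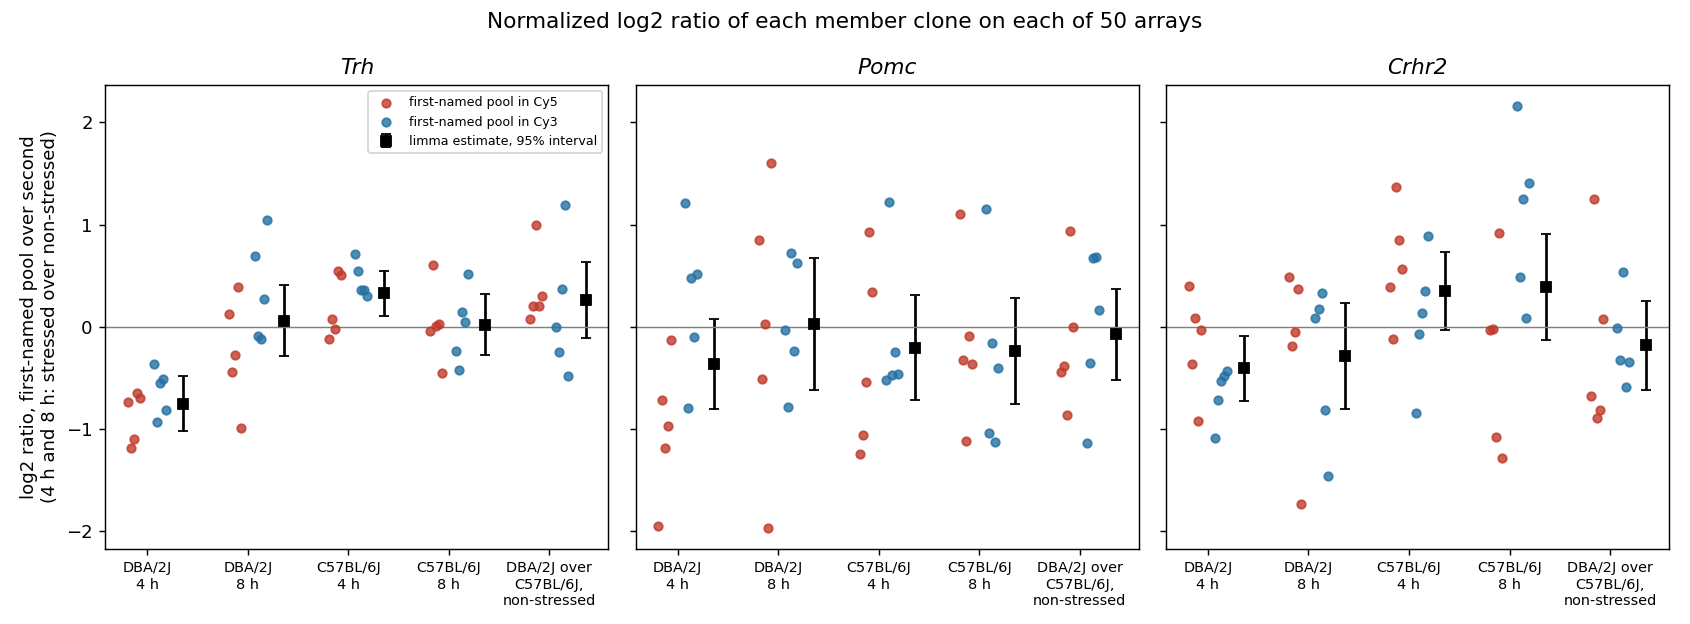
Normalized log2 ratio of the Trh, Pomc and Crhr2 clones on each of the 50 arrays by comparison, coloured by the dye of the first-named pool, with the limma estimate and its 95% interval. The 10 points of Trh in DBA/2J at 4 h all lie below 0, while the points of Pomc and Crhr2 spread to both sides of 0 in every comparison.

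The response of Trh at 4 h differed between the strains. The ratio in DBA/2J mice minus that in C57BL/6J mice was -1.08 on the log2 scale (SE 0.146, 95% interval -1.38 to -0.78, adjusted p = 0.000321 in limma), a 2.11-fold difference of the ratios and number 19 of all clones by p. The 10 ratios of DBA/2J arrays, at -1.18 to -0.36, lay below the 10 of C57BL/6J arrays, at -0.12 to 0.71, with no overlap. The call was kept when any 1 replicate number was left out, at -1.14 to -1.03. In this difference 2.34% of all clones and 1 of the 3 members were called. Of the marker clones 4 of 113 were called in it, beside the 2.34% of all clones. They were lower in DBA/2J, namely 2 of Glul, which makes glutamine in astrocytes, 1 of the glycolytic enzyme Aldoc and 1 of the neuronal enolase Eno2 (-0.70). The other Eno2 clones were at -0.63, -0.38, -0.36 and 0.39. The astrocyte list (3 of 26 clones called, with all 8 of its genes on the array) had a mean ratio of -0.29 to 0.16 over the DBA/2J arrays and of -0.02 to 0.19 over the C57BL/6J arrays. The neuron list (1 of 11 clones called) had a mean ratio of -0.44 to 0.20 over the DBA/2J arrays and of -0.26 to 0.31 over the C57BL/6J arrays. The summed intensity of the astrocyte clones was 46210 to 152000 units in the DBA/2J 4 h pool against 76910 to 148000 in its non-stressed pool, and 118600 to 206000 units in the C57BL/6J 4 h pool against 73360 to 209200 in its non-stressed pool. That of the neuron clones was 29950 to 108500 units in the DBA/2J 4 h pool against 55310 to 98060 in its non-stressed pool, and 102300 to 138100 units in the C57BL/6J 4 h pool against 62200 to 142100 in its non-stressed pool. The 5 blood cell clones, of which 0 were called and 1 had an unadjusted p under 0.05, lay between -0.39 and -0.28 in the difference (median -0.33). Their summed intensity was 1324 to 5274 units in the DBA/2J 4 h pool against 1480 to 5317 in its non-stressed pool, and 5918 to 9706 units in the C57BL/6J 4 h pool against 3924 to 9982 in its non-stressed pool. The part of these lists in the Trh difference was not tested.

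Within DBA/2J mice the ratio of Trh at 8 h minus that at 4 h was 0.81 (SE 0.193, 95% interval 0.41 to 1.21, adjusted p = 0.0456), with 1% of all clones and 1 of the 3 members called. The 8 h side of this difference rests on readings under the limit of the empty spots in both pools on all 10 arrays, so no fold is given. Both times share the non-stressed pool, on separate arrays. All mice were killed at the same hour, so the swims were at different clock times. The clock time of the swim cannot be told apart from the time since it. The ratios at 4 h (-1.18 to -0.36) overlapped those at 8 h (-0.99 to 1.04). This call was also near its threshold, and leaving out a replicate number ended it in 9 of 10 fits, with estimates of 0.70 to 0.93. An Aldoc clone, at 0.70, was the 1 marker clone called in it. The 5 blood cell clones lay between 0.06 and 0.58 (median 0.46, 0 called, 1 with an unadjusted p under 0.05). The part of the markers in this difference was not tested. In C57BL/6J mice the same difference for Trh was -0.31 (95% interval -0.65 to 0.03, adjusted p = 0.5257) with 0.495% of all clones and 0 members called. At 8 h the strains differed by 0.04 for Trh (95% interval -0.39 to 0.47, adjusted p = 0.9747), with 0.6% of all clones and 0 members called. On the C57BL/6J arrays at 8 h Trh passed the limit on 4 of 10 in the stressed and 1 of 10 in the non-stressed pool. Both sides of that strain difference therefore lay mostly under the limit.

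**Figure D4:**
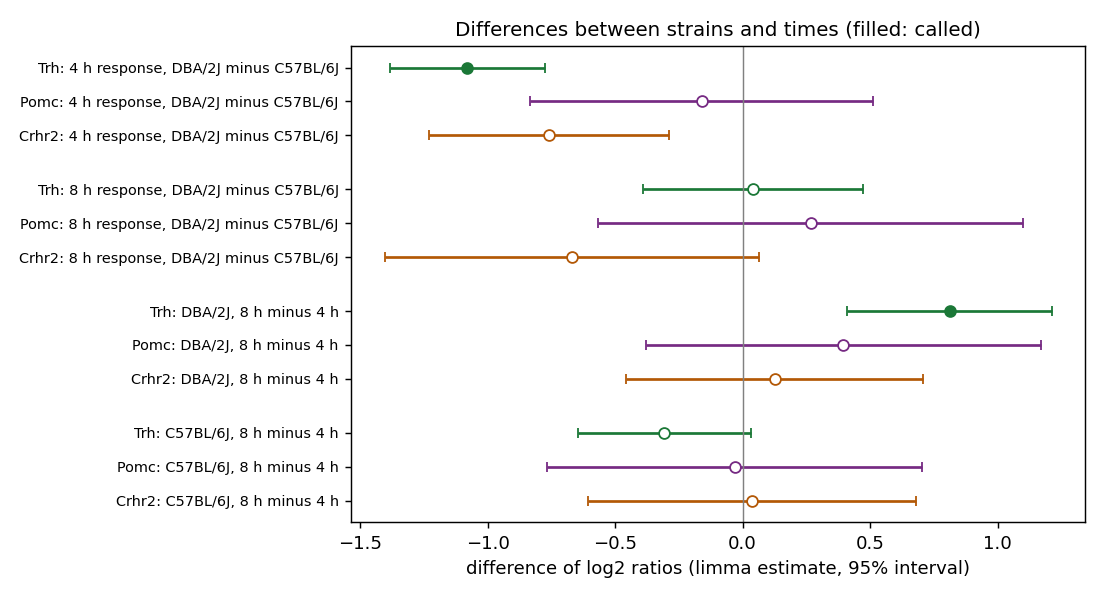
Differences of log2 ratios between strains at each time and between times in each strain for the 3 clones, as limma estimates with 95% intervals over 20 arrays. Filled points passed the call, which were Trh for the strains at 4 h (-1.08) and Trh for DBA/2J at 8 h minus 4 h (0.81).

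Pomc passed the call in none of the 5 comparisons and none of the 4 differences, with adjusted p-values in limma of 0.564 to 0.988. In the comparisons that involve DBA/2J and in C57BL/6J at 8 h the spot stayed under the limit of the empty spots in both channels of every array, so that only ratios of 2 near-background readings can be given there and no fold. In DBA/2J mice at 4 h Pomc read 20.1 to 332 units in the stressed pool (median 148) and 7.14 to 368 units in the non-stressed pool (median 150). The pools overlapped over nearly their whole range. The ratio had an estimate of -0.37 (95% interval -0.80 to 0.07), with 7 of 10 arrays below 0, and depended on the dyes: the mean was -0.99 where Cy5 marked the stressed pool and 0.26 where Cy3 did. The other estimates were 0.03 in DBA/2J mice at 8 h (95% interval -0.62 to 0.68), -0.24 in C57BL/6J mice at 8 h (-0.76 to 0.29) and -0.07 between the non-stressed strains (-0.52 to 0.37).

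Pomc passed the limit of the empty spots in the C57BL/6J 4 h comparison only. There it had 139 to 1011 units in the stressed pool (median 330) and 86.9 to 894 units in the non-stressed pool (median 413), and passed the limit on 6 and 7 of 10 arrays. The ratios ran from -1.25 to 1.23 with 7 of 10 below 0, and the estimate was -0.20 (SE 0.234, 95% interval -0.72 to 0.31, adjusted p = 0.801). The interval reaches past the 1.41-fold of the call in the lower direction. Of 2 pituitary marker genes on the array, Gh and Tbx19, each passed the limit of the empty spots in 1 of 100 channels. The responses of the strains differed by -0.16 at 4 h (-0.83 to 0.51) and by 0.27 at 8 h (-0.57 to 1.10), DBA/2J minus C57BL/6J, and the later minus the earlier time by 0.40 in DBA/2J mice (-0.38 to 1.17) and by -0.03 in C57BL/6J mice (-0.77 to 0.70).

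Crhr2 was the dimmest of the 3 clones and passed the call nowhere. Its spot was under the limit in both pools of every array, save 1 array of the C57BL/6J 4 h pool, and again no fold is given. In DBA/2J mice at 4 h it read 52.0 to 320 units in the stressed pool (median 180) and 114 to 329 units in the non-stressed pool (median 184). Its ratio was below 0 on 8 of 10 arrays, with an estimate of -0.41 (SE 0.147, 95% interval -0.72 to -0.09), an unadjusted p of 0.0156 and an adjusted p of 0.317 in limma. In C57BL/6J mice at 4 h it read 67.6 to 233 units in the stressed pool (median 128) and 37.3 to 185 units in the non-stressed pool (median 79.6), with a ratio above 0 on 7 of 10 arrays and an estimate of 0.35 (95% interval -0.03 to 0.73, adjusted p = 0.453). The strain difference of these responses was -0.76 (95% interval -1.23 to -0.29, unadjusted p = 0.00305) and missed the call by its adjusted p of 0.0879. The size of both responses depended on the dyes, though not their sign. With the stressed pool in Cy5 and in Cy3 the means were -0.17 and -0.65 in DBA/2J mice, and 0.61 and 0.09 in C57BL/6J mice. The 8 spots around Crhr2 averaged -0.06 in the DBA/2J and 0.01 in the C57BL/6J comparison at 4 h.

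At 8 h the Crhr2 ratio was -0.28 in DBA/2J mice (95% interval -0.80 to 0.24) and 0.39 in C57BL/6J mice (-0.13 to 0.91), and the strains differed by -0.67 (-1.40 to 0.06, adjusted p = 0.531). The C57BL/6J value at 8 h rested on 1 dye orientation, since the mean was -0.30 with the stressed pool in Cy5 and 1.08 with it in Cy3. The 8 spots around it averaged 0.23 on those arrays. Between the non-stressed strains Crhr2 was at -0.18 (-0.62 to 0.26). From 4 h to 8 h its ratio differed by 0.13 in DBA/2J mice (-0.46 to 0.71) and by 0.04 in C57BL/6J mice (-0.61 to 0.68).

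The ratios of the 3 clones correlated weakly with each other. Over the 50 arrays, with the dye effect of each comparison removed, the log2 ratios correlated at r = 0.11 for Trh and Pomc, 0.21 for Trh and Crhr2 and -0.01 for Pomc and Crhr2, as a description of arrays that share pools. For Trh the candidates were 4793 clones with a gene name at or above the median brightness of all clones. The 3 most like Trh were vesicle-associated membrane protein 2 (r = 0.74), a SNARE of neurotransmitter release, fibrillin 2 (r = 0.67), of extracellular microfibrils, and tubulin, alpha 2 (r = 0.65), of the cytoskeleton. In DBA/2J mice at 4 h these averaged -1.32, -0.73 and -0.46, against 0.33, 0.35 and 0.32 in C57BL/6J mice at 4 h, and their likeness to Trh in these values was fixed by the way they were chosen. For Pomc the closest clones were mitochondrial ribosomal protein L10 (r = 0.49), guanine nucleotide releasing factor 2 (r = 0.47) and a SWI/SNF-related regulator of chromatin of subfamily a, member 3 (r = 0.47), and for Crhr2 puromycin-sensitive aminopeptidase (r = 0.48), ectonucleotide pyrophosphatase/phosphodiesterase 5 (r = 0.48) and serine/arginine-rich protein specific kinase 2 (r = 0.46).

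The relatives of Crhr2 were measured in the list of the CRH system and glucocorticoid feedback, of which 15 of 20 genes were found as 20 clones. In limma 0 were called in the 5 comparisons, where 0.0832% to 3.62% of all clones were. Each had 2 or 3 clones with an unadjusted p under 0.05. The share of all clones with such a p was not counted, so these counts are a description, here and for the other lists. Crh, the peptide that starts the stress response, had estimates from -0.14 to 0.29 at a spot near background. Crhr1, the main CRH receptor of corticotrophs, had estimates from -0.18 to 0.44 at a spot that passed the empty-spot limit in 2 of 100 channels. Avp had estimates from -0.38 to 0.29. Fkbp5, a co-chaperone induced by glucocorticoids, was at 0.10 in DBA/2J mice at 4 h, 0.45 in DBA/2J mice at 8 h, 0.48 in C57BL/6J mice at 4 h and -0.13 in C57BL/6J mice at 8 h, with adjusted p-values of 0.175 to 0.875. The bright clone of Nr3c1, the glucocorticoid receptor, stood at 0.56 in DBA/2J mice at 4 h (adjusted p = 0.117) and passed the call in 2 differences, DBA/2J minus C57BL/6J at 4 h (0.68, adjusted p = 0.0175) and 8 h minus 4 h in DBA/2J mice (-0.64, adjusted p = 0.0474), both opposite in sign to Trh. In each, 1 of 20 clones was called, beside 2.34% and 1% of all clones. The study lists this clone as down-regulated at 4 h in DBA/2J mice, so its direction is opposite here, as for Trh. Among the genes of Pomc, the glucocorticoid receptor, Crhr1 and Crhr2, the study reports a change for the glucocorticoid receptor only, by its own thresholds. The second Nr3c1 clone, which is dim, was at 0.07 and -0.08 in these differences. Leaving out a replicate number ended the call of the bright clone in 5 of 10 fits of the first difference and 9 of 10 of the second.

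In the melanocortin list, which holds receptors, antagonists and neighbours of the Pomc neuron, 7 of 16 genes were found as 9 clones. In the comparisons and differences 0 were called by limma, beside 0.0832% to 3.62% of all clones, with 0 to 2 clones at an unadjusted p under 0.05. Its brightest clones were those of Socs3, a brake on leptin and cytokine signalling, with estimates of -0.11 to 0.27, of Cartpt, a peptide that arcuate Pomc neurons also make, at -0.19 to 0.17, of Atrn, a receptor of agouti, at -0.18 to 0.30, and of Asip, the agouti melanocortin antagonist, at -0.16 to 0.37. The median of the list was 0.06 in DBA/2J mice at 4 h and -0.10 in C57BL/6J mice at 4 h, beside 0.00 for all clones in both.

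In the thyroid axis list 12 of 21 genes were found as 19 clones, and the receptors of Trh were not matched to a clone by name. The stress comparisons and the 4 differences called 0 of them in limma, beside 0.0832% to 2.34% of all clones, with 0 to 3 clones at an unadjusted p under 0.05. Thrb, the thyroid hormone receptor that mediates feedback on Trh in the PVN, was lower in non-stressed DBA/2J than in C57BL/6J mice (-0.87, SE 0.144, adjusted p = 0.0034) at a spot that passed the empty-spot limit in 5 of 100 channels. Its estimate moved with the processing, to -1.29 with the DBA/2J pool in Cy5 only, -0.44 with it in Cy3 only and -1.31 without background subtraction, and the call was lost in both single orientations and with the orientations averaged. Here and for the other genes called between the non-stressed strains below, 18 of 113 cell type marker clones were called in the same comparison, and their part was not tested. In DBA/2J mice at 4 h, where Trh changed, the 19 clones lay between -0.24 and 0.22, and no clone had an unadjusted p under 0.05.

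Genes that process peptide precursors gave 19 clones of 12 of 17 genes. Between the non-stressed strains 1 was called higher and 1 lower, beside 3.62% of all clones. In C57BL/6J mice at 4 h 1 of 19 was called, beside 0.289% of all clones, and in DBA/2J mice at 8 h 1 of 19, beside 0.158%. The strain difference at 4 h called 1 of 19, beside 2.34%, and 8 h minus 4 h in DBA/2J mice 1 of 19, beside 1%. Resp18, whose product sits in secretory granules of neuroendocrine cells, was higher in C57BL/6J mice at 4 h (0.52, adjusted p = 0.0225) and in non-stressed DBA/2J over C57BL/6J mice (0.90, adjusted p = 0.00283). It was at -0.03 in DBA/2J mice at 4 h, and the strain difference at 4 h was called (-0.55, adjusted p = 0.0334). The brightest clone of Cpe, which trims the basic residues from peptide intermediates, was lower in DBA/2J mice at 8 h (-0.60, adjusted p = 0.0239) and in the 8 h minus 4 h difference of that strain (-0.80, adjusted p = 0.0088). The other Cpe clones, which are dimmer, were not called in either. A Scg2 clone, for a granin of dense-core vesicles, was lower between the non-stressed strains (-0.81, adjusted p = 0.00485), while the other Scg2 clone was not called. The calls of Resp18 at 4 h and of Cpe at 8 h were lost in 9 of 10 and 10 of 10 fits that left out an array.

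Of the signalling and transcription factors upstream of Trh and Pomc, 15 of 22 genes were found as 25 clones. The 4 stress comparisons called 0 in limma, beside 0.0832% to 0.289% of all clones, with 2 to 4 clones at an unadjusted p under 0.05. The non-stressed strains called 1, beside 3.62% of all clones. It was a clone of Arnt2 (0.60, adjusted p = 0.046), a partner of the PVN factor Sim1. Its call was lost in 8 of 10 fits that left out an array, and the other Arnt2 clones were not called. The brightest clones, of the stimulatory G protein Gnas and of the protein kinase A subunits Prkaca and Prkar1a, lay between -0.29 and 0.38 in DBA/2J mice at 4 h, with adjusted p-values of 0.373 to 0.816.

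**Figure D5:**
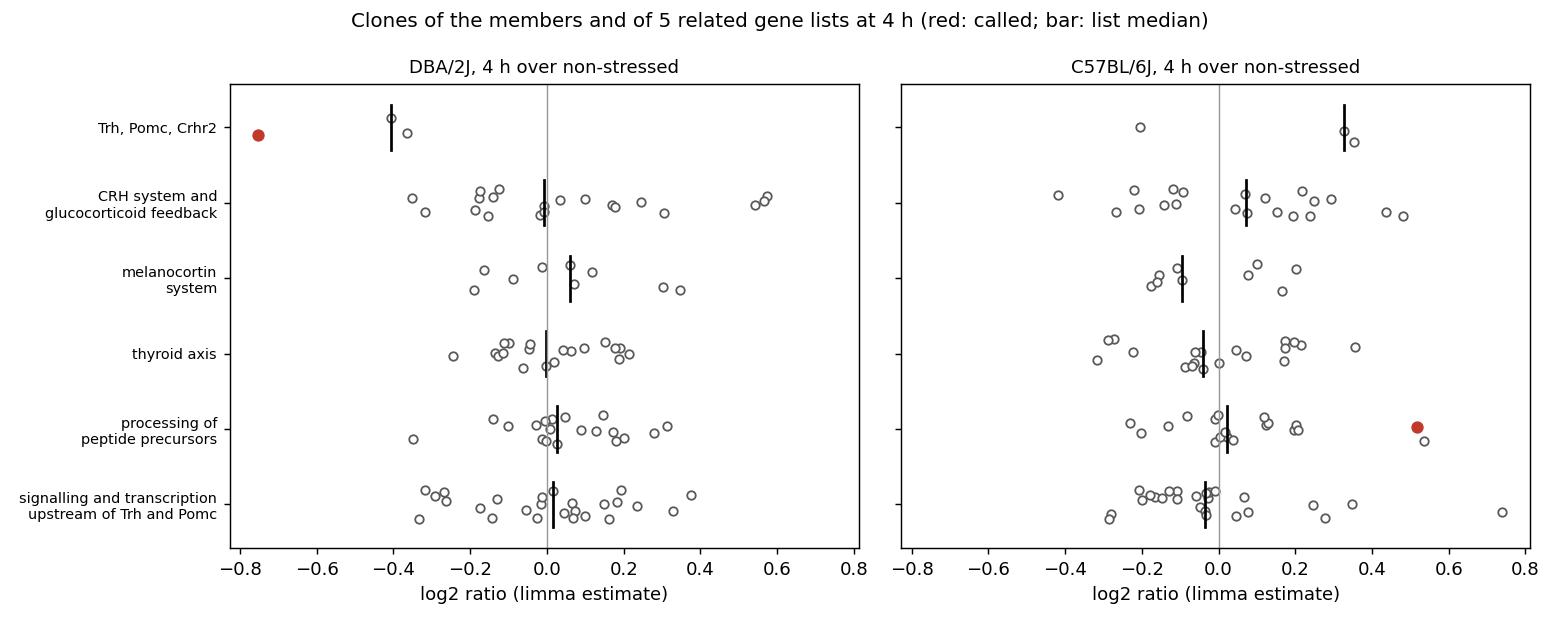
Limma estimates (log2 ratio, stressed over non-stressed) at 4 h in DBA/2J on the left and C57BL/6J on the right for the clones of Trh, Pomc and Crhr2 and of 5 lists of related genes, with called clones in red and list medians as bars. Trh in DBA/2J (-0.75) and Resp18 in C57BL/6J (0.52) are the 2 called clones.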

How the data were processed

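The authors deposited for each array the scanned spot intensity and local background in Cy5 and Cy3 (QuantArray, fixed circle, no background subtracted per the file headers) and a table of processed log2 ratios for 19047 spots, whose filter was not given in the sources used here and in which the Pomc spot was not listed. The dye of each channel was taken from the image names in the headers, since 4 of 50 files list Cy3 first. Each array's ratios correlated with its column of the authors' table at r = 0.88 to 0.97. The intensities were corrected by normexp with an offset of 50, normalized by loess within each array with 1368 control spots at weight 0, turned to the direction of the labelled dyes, and fitted with limma 3.58.1 (R 4.3.3) with a term for dye orientation. For a difference, the 20 arrays of both comparisons entered 1 fit. The Benjamini-Hochberg adjustment ran over 22824 clones. Summaries used Python 3.11.15, pandas 2.3.3 and numpy 2.4.6. The fits were tested on simulated data. The number of arrays limits the precision.

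The members and gene lists were chosen with earlier results of these data known. Every member clone is named, and of each list the called clones and otherwise at most the 4 brightest, besides Crh, Crhr1 and Avp, which were chosen after their values were seen, as was the second Nr3c1 clone. The files name clones but give no symbols, so list genes were matched by the spelled name and promoters by symbol. Clones most like a member were the 3 with the highest correlation among clones at or above the median brightness whose name is a gene name. Alternatives were print-tip loess, centring on the median, foreground intensities with no background subtracted, no dye term, either dye orientation alone, the orientations averaged, the methods' t-test, the authors' processed table, a filter on dim clones, the scan day and the replicate number as blocks, and each replicate left out. Hormone, PCR and in situ measurements were not analysed here.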

Additional observations from a re-analysis of the deposited data

Results flagged for a closer look

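The 4 h response of Trh was set apart by a test of the difference between the strains, at -1.08 on the log2 scale for DBA/2J minus C57BL/6J (adjusted p = 0.000321 in limma, 20 arrays). The ratio was below 0 on 10 of 10 DBA/2J arrays and above 0 on 8 of 10 C57BL/6J arrays.

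The Trh ratio in DBA/2J mice also differed between the times, at 0.8127 for 8 h minus 4 h (adjusted p = 0.0456 in limma). It was below 0 on 5 of 10 arrays at 8 h and on 10 of 10 at 4 h. At 8 h both pools read under the limit of the empty spots on all 10 arrays. The call was lost in 9 of 10 fits without a replicate. Of the 15 sets of 10 arrays of a member, 0 held an array that stood apart by Dixon's test.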

How the results depend on the processing

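Of 520 alternative values of the 27 member results, 453 kept their direction and their side of the threshold, 37 changed sign and 30 lost a call, 0 gaining one. Most of the 27 results were never called, and only the called ones, all of Trh, could lose a call. Trh in DBA/2J mice at 4 h kept its call in 6 of 11 settings and in 0 of 10 fits without a replicate. The strain difference at 4 h kept it in 7 of 9 and 10 of 10. The 8 h minus 4 h difference in DBA/2J mice kept it in 5 of 9 and 1 of 10. The ratio of Trh in DBA/2J mice at 4 h (-0.75 by the labelled dyes) kept its call with print-tip loess, median centring, the methods' t-test, the authors' table, the filter on dim clones and the scan day as a block. It lost it without background subtraction (-0.796, adjusted p = 0.0516), without the dye term (-0.7522, adjusted p = 0.0544), with the stressed pool in Cy5 only (-0.8713) or Cy3 only (-0.633), with the orientations averaged (-0.7522), and without any 1 replicate (-0.7859 to -0.7135). Fewer arrays entered these last fits. The strain difference of Trh at 4 h lost its call only with either orientation alone (Cy5 -1.071, Cy3 -1.089) and lay between -1.136 and -1.031 without a replicate. The 8 h minus 4 h difference of Trh in DBA/2J mice lost its call without the dye term (0.8127, adjusted p = 0.104), with Cy5 (0.6317) or Cy3 (0.9936) only, and in 9 of the 10 fits without 1 replicate (0.7044 to 0.9284).

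The replicate number named arrays and did not pair them: same-numbered arrays' residuals correlated at -0.0164 to 0.0215. With the replicate block, Trh at 4 h was at -1.08 (adjusted p = 0.0185) and at 0.8127 for 8 h minus 4 h in DBA/2J mice (adjusted p = 0.167, call lost).

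Signs turned for uncalled results, the cause not tested. With Cy5 arrays alone, Trh was at -0.2396 in DBA/2J at 8 h and -0.2697 for the 8 h strain difference. Crhr2 was at -0.2976 in C57BL/6J at 8 h, 0.07408 for the 8 h strain difference, -0.9072 for C57BL/6J and -0.05794 for DBA/2J between times, and Pomc at 0.158 for C57BL/6J between times. With Cy3 arrays alone Pomc was at 0.004271 between non-stressed strains, 0.2615 in DBA/2J at 4 h, 0.354 for the 4 h strain difference and -0.2026 for DBA/2J between times. Median centring gave 0.0305 for Pomc in C57BL/6J between times, and the authors' table -0.006457 for Trh in C57BL/6J at 8 h. Without a replicate, Trh ranged from -0.05061 to 0.08127 in C57BL/6J at 8 h, -0.02494 to 0.1544 in DBA/2J at 8 h and -0.03904 to 0.1368 for the 8 h strain difference. Pomc ranged from -0.2087 to 0.06979 between non-stressed strains, -0.17 to 0.2761 in DBA/2J at 8 h, -0.3319 to 0.1358 for the 4 h strain difference and -0.3058 to 0.2235 for C57BL/6J between times. Crhr2 ranged from -0.2139 to 0.2296 for C57BL/6J and -0.04165 to 0.3323 for DBA/2J between times.

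Counts over all clones moved by over 1.5 times. They were 35 to 1212 (main 826) between non-stressed strains, 0 to 290 (35) in DBA/2J at 4 h, 0 to 132 (36) in DBA/2J at 8 h, 0 to 141 (66) in C57BL/6J at 4 h, 1 to 129 (19) in C57BL/6J at 8 h, and 0 to 709 (535), 5 to 265 (137), 0 to 437 (229) and 1 to 136 (113) for the differences at 4 h, at 8 h, in DBA/2J and in C57BL/6J. No alternative value exists for Pomc from the authors' table or for the scan day in C57BL/6J at 4 h, scanned on 1 day. After the filter on dim clones none exists for Crhr2 in any comparison or for Pomc outside C57BL/6J at 4 h. The filter also removed Trh in the 8 h comparison of each strain. Brightness limits Pomc and Crhr2, most of whose readings lie under the limit of the empty spots, and Trh at 8 h.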
